A study of Mus musculus with 6 samples.

Results

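Transcripts of 9 genes of transforming growth factor beta (TGF-beta) and bone morphogenetic protein (BMP) signalling were followed in whole kidneys of mice labelled as controls or as Nampt conditional knockouts. The genes are the ligands Tgfb1, Tgfb2, Tgfb3 and Bmp7, the receptors Tgfbr1 and Tgfbr2, the intracellular mediators Smad3 and Smad7 and the BMP antagonist Grem1. They were chosen by name, for their place in the pathway, and are 9 of 15305 genes tested and of 21150 genes named on the array. Each was identified through the accession that the array design gives for its probes, which yielded 13 probes, 1 for 5 of the genes and 2 for Tgfb2, Tgfbr1, Tgfbr2 and Smad3. All 13 probes were well above background on all 6 arrays.

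Kidneys came from 3 control mice and 3 mice labelled iNampt-conditional knockout, all male C57BL/6J, with 1 single-colour Agilent array per animal. Nampt makes the enzyme that limits NAD salvage, and the series title places the study in the renal proximal tubule and names extracellular matrix deposition in diabetic nephropathy. Neither the age of the mice, the Cre line, the genotype of the controls nor any diabetic treatment is given in the sources used here. The labels number the animals within each group, and p-values measure the spread between these 6 samples.

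TGF-beta is secreted bound to a latency peptide and to latent TGF-beta binding proteins that anchor it in the matrix, and it has to be released before it can signal. Freed ligand binds the type II receptor Tgfbr2, which activates the type I receptor Tgfbr1, which in turn phosphorylates Smad2 and Smad3; together with Smad4 these drive matrix genes and also the inhibitory Smad7, which feeds back on the receptor. Bmp7 signals through other receptors to Smad1 and Smad5 and is known in the kidney for roles in nephron formation and for opposing TGF-beta in the tubule. Secreted antagonists such as gremlin (Grem1), noggin (Nog) and Sostdc1, also called USAG-1, bind BMPs and keep them from their receptors.

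The targeted gene Nampt was at 2.78, 2.59 and 2.65 in the controls and at 1.80, 1.502 and 1.53 in the knockouts, as log2 signal relative to the 75th percentile of each array, the scale used for all levels here. Nampt fell by 1.06 ± 0.10 (SE) in log2 units, with a limma p of 0.0431 after Benjamini-Hochberg adjustment over all genes. That call was lost in 8 of 18 alternative settings, among them the omission of any 1 array other than knockout 1 (adjusted p from 0.0730 to 0.180). Spots well above background made up 57.3% to 63.3% of each array, none was saturated, and the number of arrays limits the precision. Proximal tubule markers were detected, 10 of 10, with a summed level of 1195 to 1328 in the controls and of 1204 to 1252 in the knockouts. By the array positions in the deposited names, the controls and knockout 1 lay in row 1 of the slide and knockouts 2 and 3 in row 2. A fit that blocks on slide row, called the slide-row fit here, therefore compares knockout 1 alone with the 3 controls. Of the 26 genes called in all, 8 lay on chromosome 12, the chromosome of Nampt in the RefSeq table of GRCm38.p6, where 1.52% of 526 genes were called against 0.122% of genes on the other chromosomes.

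None of the 9 genes passed the test. By limma 0 of 9 had an adjusted p under 0.05, where 0.17% of all genes tested did; at an unadjusted p under 0.05 there was 1 of 9, Smad7, where 12.8% of all genes passed that threshold, 6.68% higher and 6.13% lower. Of all genes, 0.105% were called higher and 0.0653% lower. The differences ran from -0.19 to 0.16 on the log2 scale, with 5 above and 4 below 0 and a median of 0.033, beside a median of -0.0077 over all genes tested. The groups did not overlap for 2 of the 9 genes, Tgfbr2, which was higher in the knockouts, and Smad7, which was lower; the groups did not overlap in 19.5% of all genes tested, 9.04% higher and 10.5% lower, so the members' count is near that background. In whole kidney, fewer cells of a type and less RNA per cell cannot be told apart.

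**Figure D1:**
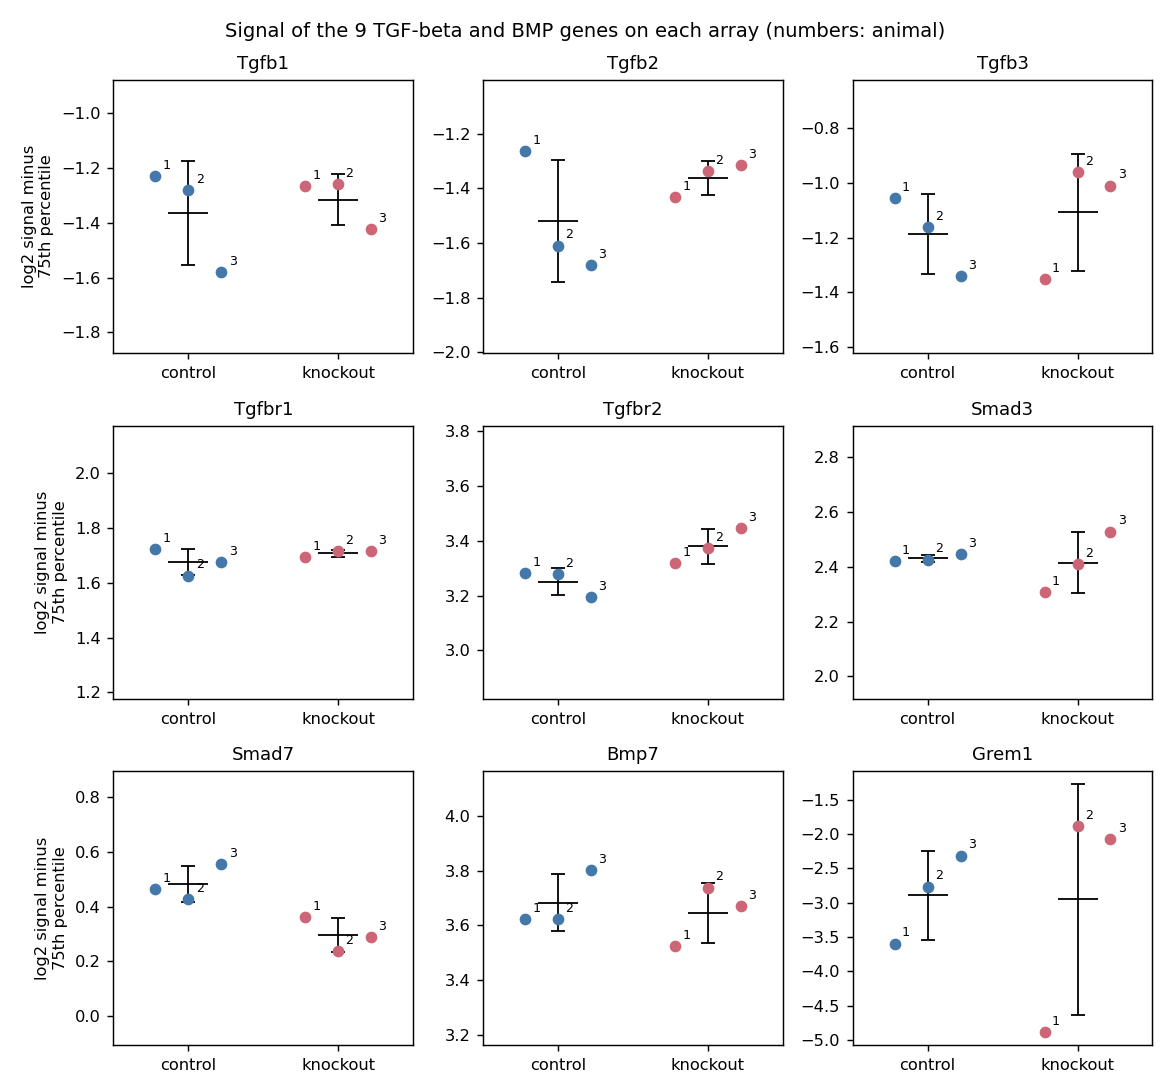
Level of each of the 9 genes on each array (vertical axes: log2 signal minus the array's 75th percentile; each panel has its own range). Points are animals, with their number; horizontal bars are group means and whiskers the SD of 3 animals. The 3 knockouts lie above the 3 controls for Tgfbr2 and below them for Smad7, and the groups overlap for the other 7 genes.

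By the probe used, each of the 3 TGF-beta ligands differed by less than the SD of its 3 controls. Tgfb1, the isoform best known for driving renal fibrosis, was at -1.23, -1.28 and -1.58 in the controls and at -1.26, -1.26 and -1.42 in the knockouts. The knockout values all lay inside the control range, and the difference was 0.048 ± 0.11 (SE; adjusted p = 0.892), with a 95% interval by limma from 0.861-fold to 1.24-fold. Tgfb2 was at -1.26, -1.61 and -1.68 in the controls and at -1.43, -1.34 and -1.32 in the knockouts. Here control 1 lay above all 3 knockouts and controls 2 and 3 below them, which gave 0.16 ± 0.12 (adjusted p = 0.644), from 0.915-fold to 1.36-fold. Leaving out 1 animal moved the Tgfb2 difference between 0.075 and 0.28. The second, dimmer Tgfb2 probe lay in the same direction, at 0.39 ± 0.16 in the fit of every probe (adjusted p = 0.396), again with control 1 within the knockout range. Tgfb3 was at -1.06, -1.16 and -1.34 in the controls and at -1.35, -0.96 and -1.01 in the knockouts. Knockout 1 was the lowest of the 6 animals and knockouts 2 and 3 the highest, so that the mean difference of 0.079 ± 0.13 (adjusted p = 0.848) turned to -0.17 in the slide-row fit. Tgfb3 lies on the chromosome of Nampt, with 284 protein-coding genes between them.

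The receptor genes were among the steadiest of the 9. Tgfbr1, the type I receptor kinase, was at 1.72, 1.63 and 1.68 in the controls and at 1.69, 1.71 and 1.71 in the knockouts. Its SD over the 6 arrays was 0.036, smaller than that of all but 3.81% of the genes tested. The difference was 0.033 ± 0.047 (adjusted p = 0.825), and the interval ran from 0.945-fold to 1.11-fold. The dimmer Tgfbr1 probe was at -0.18 ± 0.081 (adjusted p = 0.447 in the fit of every probe), so the sign of the Tgfbr1 difference depends on the probe. Tgfbr2, the type II receptor that binds the ligand, was at 3.28, 3.28 and 3.20 in the controls and at 3.32, 3.37 and 3.45 in the knockouts. All 3 knockouts lay above all 3 controls, by a margin that was small beside the range within each group. The difference was 0.13 ± 0.056 (adjusted p = 0.415), from 0.995-fold to 1.20-fold, and 0.067 in the slide-row fit. The dimmer Tgfbr2 probe was at 0.059 ± 0.11.

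The 2 Smad genes among the 9 differed in whether the groups overlapped. Smad3, which carries the TGF-beta signal to the nucleus, was at 2.42, 2.43 and 2.45 in the controls and at 2.31, 2.41 and 2.53 in the knockouts. The controls were nearly equal and the knockouts spread to both sides of them, with a difference of -0.016 ± 0.067 (adjusted p = 0.948) and an interval from 0.883-fold to 1.11-fold. Its dimmer probe was at 0.056 ± 0.12. Smad7, the inhibitory Smad that TGF-beta and BMP both induce, was at 0.46, 0.43 and 0.56 in the controls and at 0.36, 0.24 and 0.29 in the knockouts. All 3 knockouts lay below all 3 controls, as in 10.5% of all genes tested. The difference was -0.19 ± 0.059 (adjusted p = 0.295), or 0.878-fold with an interval from 0.795-fold to 0.970-fold that is not adjusted for the number of genes. Its sign held in all 18 alternative settings, from -0.22 to -0.12, with adjusted p from 0.108 to 0.699. The smallest of these differences came in the slide-row fit.

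Bmp7 and its antagonist Grem1 gave the clearest contrast in precision. Bmp7 was at 3.62, 3.62 and 3.80 in the controls and at 3.52, 3.74 and 3.67 in the knockouts. The knockouts lay on both sides of controls 1 and 2, and the difference was -0.039 ± 0.082 (adjusted p = 0.880), from 0.847-fold to 1.12-fold. Its value was -0.16 in the slide-row fit and 0.021 without knockout 1. Grem1, which is expressed at low levels in the adult kidney and is known to rise in diabetic nephropathy, was at -3.60, -2.77 and -2.31 in the controls and at -4.89, -1.89 and -2.07 in the knockouts. Knockout 1 was the lowest of the 6 animals and knockouts 2 and 3 the highest, and the SD over the 6 arrays was larger than that of 99.6% of the genes tested. The difference was -0.059 ± 0.85 (adjusted p = 0.986), and its interval ran from 0.225-fold to 4.09-fold. A difference within that interval was not detectable for Grem1 in these 6 animals. Without knockout 1 the Grem1 difference was 0.91 (adjusted p = 0.413), and in the slide-row fit, which keeps only knockout 1, it was -2.0 (adjusted p = 0.285).

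**Figure D2:**
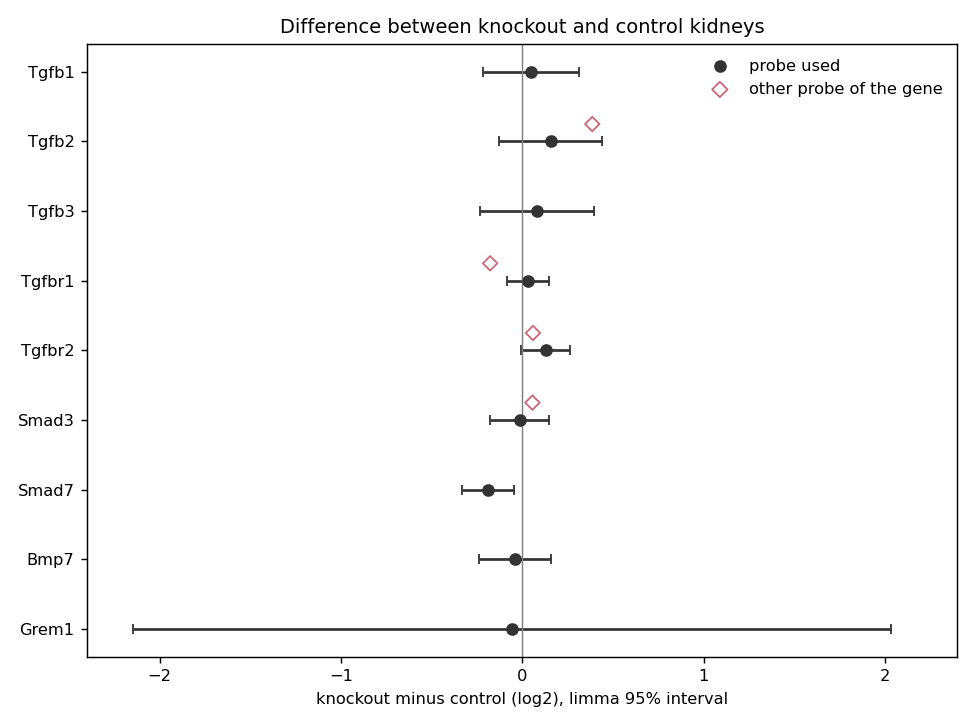
Knockout minus control on the log2 scale for the 9 genes (horizontal axis), with the 95% interval from limma around the probe used (black) and the difference of the other probe where a gene has one (open diamonds). The intervals of all but Smad7 cross 0, those of Tgfbr1 and Tgfbr2 are narrow, and that of Grem1 runs from -2.15 to 2.03.

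For each of the 9 genes the pathway gene with the nearest pattern over the 6 arrays was taken, as the smallest root mean square difference between log2 values centred on the control mean, among 104 genes. Tgfb1 lay nearest to Eng (0.0545), Tgfb2 to Tgfbr2 (0.115), Tgfb3 to Smad2 (0.0992) and Tgfbr1 to Smad5 (0.0347). Tgfbr2 lay nearest to Bmp8a (0.0579), Smad3 to Smad5 (0.0625), Smad7 to Zfyve9 (0.0522) and Bmp7 to Ppm1a (0.0471). No nearest gene is given for Grem1. Any gene has a nearest one by this measure, and genes that vary little lie near each other. For Tgfbr1 the second nearest gene was almost as close (0.0362). Genes outside the pathway lists were not compared, so the pairs do not show that genes vary together.

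The rest of the pathway was read from the same fit through 7 lists of 112 further genes, of which 96 were well above background on every array of at least 1 group. Of these 96, 0 passed an adjusted p of 0.05 by limma. With the 9 genes, 17 of 105 were under an unadjusted limma p of 0.05, 9 higher and 8 lower. Of all genes tested 12.8% were under it, 6.68% higher and 6.13% lower. The groups did not overlap for 18 of the 105, 10 higher and 8 lower, again near the 19.5% of all genes tested. The median difference was 0.0080 over the 96 genes. Single genes nevertheless lay far from it, and 5 of the 96 were past 1.5-fold in either direction (among them Ltbp2, Inhbb and Timp1), where 2.91% of all genes tested were. The count of 0 called became 3 with array weights, Ltbp2, Inhbb and Timp1, and to 2 without control 1, Ltbp2 and Inhbb. Without knockout 1 it was 3, among them Timp1 and Cdkn1a (0.67; adjusted p = 0.0498).

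**Figure D3:**
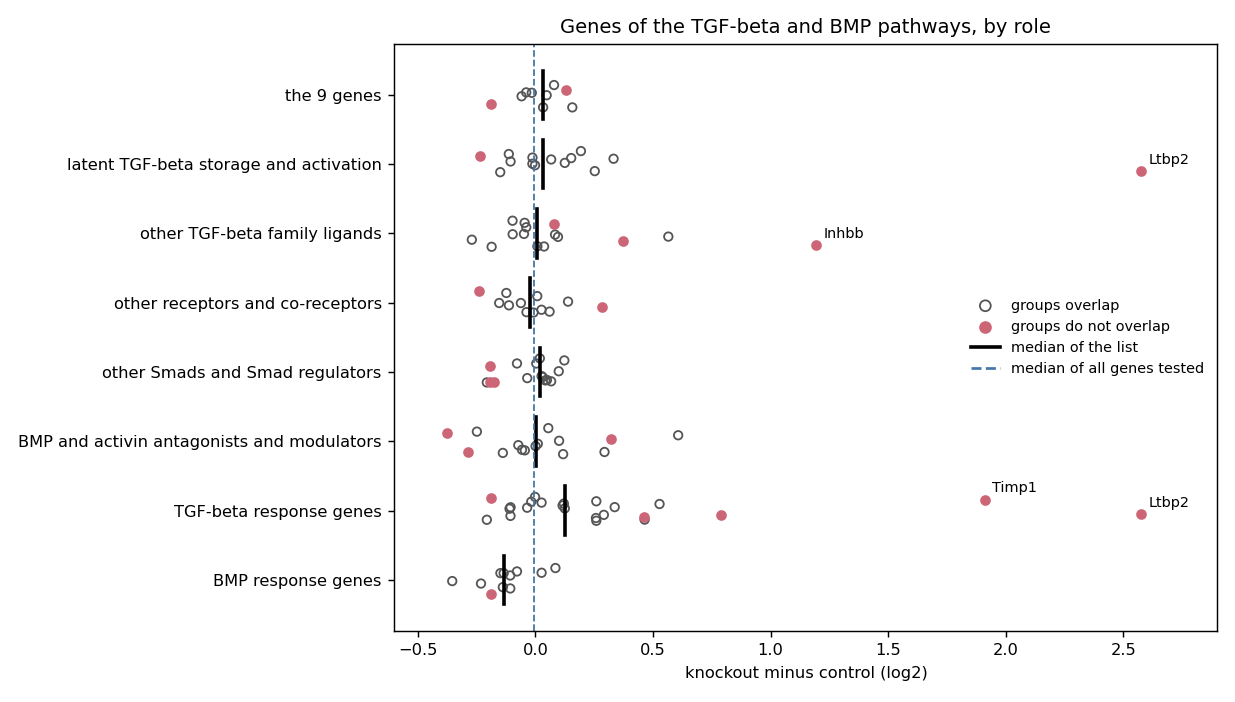
Knockout minus control on the log2 scale (horizontal axis) for each measured gene of the pathway, in rows by role; Smad7, Ltbp2 and other genes on 2 lists appear in both. Filled points are genes whose groups do not overlap, black bars list medians, the dashed line the median of all genes tested. Most genes lie within 0.5 of 0, and Ltbp2, Timp1 and Inhbb, which are named, lie the farthest above 0.

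Among BMP and activin antagonists, Sostdc1 was higher in the knockouts on both of its probes. Sostdc1 encodes a secreted antagonist known to bind Bmp7 and to be made in the distal nephron. Its brighter probe was at 2.99, 3.25 and 3.02 in the controls and at 3.40, 3.32 and 3.50 in the knockouts, a difference of 0.32 ± 0.090 (adjusted p = 0.263) that did not pass. Its dimmer probe was at 2.02, 2.23 and 2.15 in the controls and at 2.899, 3.01 and 3.12 in the knockouts. All 3 knockouts lay above all 3 controls on either probe, and the gap was far wider on the dimmer one. On that probe the Sostdc1 signal was higher by 0.88 ± 0.084 in the fit of every probe (adjusted p = 0.0377 over 20184 probes, of which 35 or 0.173% were called). That call was lost without each array other than knockout 1, with adjusted p of 0.0702, 0.131 and 0.183 without controls 1, 2 and 3 and of 0.171 and 0.154 without knockouts 2 and 3, and also in the slide-row fit (0.77; adjusted p = 0.119). Sostdc1 lies on chromosome 12 with 17 protein-coding genes between it and Nampt, the nearest of the 6 measured pathway genes on that chromosome; what part this has in the difference was not tested. The probes differ in the size of the difference, the sources used here do not name the strain of the targeted allele, and the sequence under the probes was not examined. Markers of the distal convoluted and connecting tubule were below 0 in 6 of 6, with groups that did not overlap for 1 and a lowest adjusted p by limma of 0.517. Their summed level was 27.9 to 33.3 in the controls and 20.9 to 27.0 in the knockouts. Of the thick ascending limb markers 3 were above and 4 below 0, and of the collecting duct markers 5 were above and 5 below 0. The part of these cells in the Sostdc1 difference was not tested.

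The other antagonists lay on both sides of 0, and none of the 15 measured passed by the probe used. Fstl3, a follistatin-like protein that binds activins, was at 0.47, 0.70 and 0.43 in the controls and at 0.23, 0.29 and 0.23 in the knockouts, -0.29 ± 0.080 (adjusted p = 0.263). Nog was at -2.34, -2.87 and -2.65 in the controls and at -3.01, -3.07 and -2.901 in the knockouts, -0.38 ± 0.14 (adjusted p = 0.357). The groups did not overlap for either gene, although the highest Nog knockout lay close to the lowest control. Fst, which encodes follistatin, was at -0.25 ± 0.24, Nbl1 at 0.29 ± 0.22, Chrd, which encodes chordin, at -0.073 ± 0.089 and Kcp, a BMP enhancer of the renal tubule, at 0.00061 ± 0.074. Over the 15 genes the median was 0.00061, with 1 higher and 2 lower in groups that did not overlap. Over all genes tested the groups did not overlap in 19.5%, 9.04% higher and 10.5% lower, so the count is near that background. Bambi, a decoy receptor, was not well above background on any array, and neither was Sost.

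The genes that store and release TGF-beta included the largest difference in the pathway. Ltbp2, a matrix protein of the latent TGF-beta binding family that is known not to bind latent TGF-beta itself, was at -3.17, -4.30 and -4.43 in the controls and at -1.86, -1.14 and -1.17 in the knockouts. All 3 knockouts lay above all 3 controls, and control 1 was the highest control and knockout 1 the lowest knockout. The difference was 2.57 ± 0.38 (adjusted p = 0.101), or 5.96-fold with an unadjusted interval from 3.11-fold to 11.4-fold. Ltbp2 is a dim gene in the controls, although it was well above background on every array. With normexp and quantile normalisation the difference was 1.66. Without control 1 it was 2.97 and passed (adjusted p = 0.0453 by limma). Ltbp2 also lies on chromosome 12, with 264 protein-coding genes between it and Nampt. The binding proteins that do hold TGF-beta were at 0.19 ± 0.15 for Ltbp1, -0.0017 ± 0.090 for Ltbp3 and 0.067 ± 0.14 for Ltbp4. Of the integrin chains that free it, Itgb8 was at -0.24 ± 0.064 (adjusted p = 0.251) and lower in all 3 knockouts, Itgav at -0.11 ± 0.076 and Itgb6 at -0.11 ± 0.085. Nrros, which holds latent TGF-beta on myeloid cells, was at 0.33 ± 0.17 and at 0.026 in the slide-row fit; macrophage and dendritic cell markers were above 0 in 9 of 10, and their part in it was not tested. None of the 14 genes of this list passed, 7 were above and 7 below 0, and the median was 0.033.

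Among the other ligands the subunits Inhbb, Inhba and Inha stood highest, while Inhbe, another activin subunit, was at -0.097 ± 0.13 (adjusted p = 0.809) and Inhbc was not well above background on any array. Inhbb, the subunit of activin B, was at -1.76, -2.29 and -2.42 in the controls and at -0.97, -0.99 and -0.93 in the knockouts. The knockouts were nearly equal and lay clear of every control; the difference was 1.19 ± 0.17 (adjusted p = 0.0920), or 2.29-fold from 1.72-fold to 3.05-fold. It was 1.18 in the slide-row fit, and it passed without control 1 (1.39; adjusted p = 0.0151), with array weights and with a trended and robust variance. Inhba, the subunit of activin A, was at -4.35, -4.14 and -4.71 in the controls and at -4.23, -3.78 and -3.48 in the knockouts, 0.56 ± 0.23 (adjusted p = 0.388). Inha, the inhibin alpha subunit, was at 0.37 ± 0.15 (adjusted p = 0.382). Both are dim genes, and their differences were 0.25 and 0.20 with normexp and quantile normalisation; spots well above background began at signals of 18.5 to 20.9 in row 1 and of 29.6 and 32.2 in row 2. The BMP ligands of the tubule and the vessels differed little, with Bmp4 at 0.083 ± 0.11, Bmp6 at -0.039 ± 0.048 and Bmp2 at 0.0083 ± 0.18. Bmp8a was at 0.079 ± 0.047, and Gdf15, a stress-induced member of the family, at 0.096 ± 0.21. Of the 20 genes listed 15 were measured, 0 passed, and the median was 0.0083. For Bmp1, the protease that processes procollagen, the 3 probes gave 0.27, 0.023 and, by the probe used, -0.19.

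Receptors and Smads outside the 9 genes lay close to 0. Acvr1b, the type I activin receptor, was at -2.23, -2.003 and -2.09 in the controls and at -1.92, -1.76 and -1.79 in the knockouts, 0.28 ± 0.080 (adjusted p = 0.264). Acvr1, a type I receptor used by Bmp7, was at 2.17, 1.99 and 2.002 in the controls and at 1.94, 1.75 and 1.75 in the knockouts, -0.24 ± 0.081 (adjusted p = 0.327) and -0.11 in the slide-row fit. The knockouts lay above every control for Acvr1b, as in 9.04% of all genes tested, and below every control for Acvr1, as in 10.5%. Rgma and Bmpr1b were at -0.12 ± 0.073 and -0.15 ± 0.12, Bmpr1a and Bmpr2 at -0.038 ± 0.047 and -0.062 ± 0.073, and the endothelial receptors Eng and Acvrl1 at 0.026 ± 0.094 and 0.0077 ± 0.091. The common mediator Smad4 was at 0.0034 ± 0.044, Smad2 at 0.049 ± 0.067, Smad1 at 0.031 ± 0.096, Smad5 at 0.042 ± 0.045 and the inhibitory Smad6 at -0.079 ± 0.10. The dimmer Smad5 probe was at -0.20 and the dimmer Smad1 probe at 0.20. Among genes that restrain or escort Smads, Ski was at -0.19 ± 0.061 (adjusted p = 0.295), Zfyve9, the anchor protein SARA, at -0.19 ± 0.066 (adjusted p = 0.328) and the ubiquitin ligase gene Smurf2 at -0.17 ± 0.066 (adjusted p = 0.361), each below every control in all 3 knockouts. All 3 knockouts lay below every control in 10.5% of all genes tested. The related repressor gene Skil was at -0.21 ± 0.11. None of the 12 receptors and 15 Smad genes measured passed, and the list medians were -0.023 and 0.019.

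The genes known to respond to TGF-beta had the highest median of the 7 lists, 0.12, although 0 of the 23 measured passed. The list shares Smad7, Ltbp2 and other genes with the lists above. Timp1, an inhibitor of metalloproteinases, was at -2.62, -3.04 and -3.09 in the controls and at -1.70, -0.41 and -0.90 in the knockouts, 1.91 ± 0.33 (adjusted p = 0.138). All 3 knockouts lay above the controls and knockout 1 was the lowest of them, with 1.22 in the slide-row fit and 2.26 without knockout 1 (adjusted p = 0.0435). Cdkn1a, the cell cycle inhibitor p21, was at -0.85, -0.80 and -0.82 in the controls and at -0.79, -0.23 and -0.075 in the knockouts. Knockout 1 lay just above the controls; the difference was 0.46 ± 0.18 (adjusted p = 0.379), and 0.035 in the slide-row fit. The groups overlapped for the matrix and contractile targets: Ccn2, the connective tissue growth factor, was at 0.12 ± 0.14, Tgfbi at 0.26 ± 0.22, Col1a1 at 0.46 ± 0.30, Fn1 at 0.12 ± 0.23 and Acta2, the smooth muscle actin of myofibroblasts, at -0.11 ± 0.13. Of the 23, 15 were above and 8 below 0, where 7210 of all 15305 genes tested were above 0. Their mean deviation from the control means was 0.20, 0.047 and -0.25 in controls 1, 2 and 3. In knockouts 1, 2 and 3 it was 0.15, 0.47 and 0.39, with knockout 1 inside the control range.

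Markers of other cell types were also read. Of 10 macrophage and dendritic cell markers 9 were above 0, where 7210 of all 15305 genes tested were. For 6 of the 10 every knockout lay above every control, where 9.04% of all genes tested did. None of the 10 passed (lowest adjusted p by limma 0.199). Their summed level was 76.9 to 86.3 in the controls and 94.6 to 97.3 in the knockouts. Of 10 fibroblast and pericyte markers, 4 of which are also pathway genes here, 9 were above 0, but the groups overlapped for each of the 10. Their summed levels overlapped too, at 32.3 to 54.1 in the controls and 44.8 to 56.3 in the knockouts. No marker of either list was below background on all arrays. Of 4 neutrophil markers measured 3 were lower in every knockout and past 1.5-fold, with a median of -1.75. Over all genes tested, every knockout lay below every control in 10.5%, and 2.91% were past 1.5-fold in either direction. The highest was at 0.024, and 2 further markers were not measured. The summed level was 139.9 to 141.6 in the controls and 135.5 to 139.8 in the knockouts. A sum of linear signals follows the brightest probes, so it does not describe the 3 lower markers. The part of these cells in the differences of Timp1, Ltbp2 and the collagen genes was not tested.

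The genes known to respond to BMP had the lowest median of the 7 lists, -0.14, with 0 passing. Of the 11 measured 9 were below 0, where 8095 of all 15305 genes tested were. Their mean deviation from the control means was -0.070, 0.10 and -0.032 in controls 1, 2 and 3. In knockouts 1, 2 and 3 it was -0.041, -0.28 and -0.051, so that only knockout 2 lay below the control range. Id1, an inhibitor of differentiation and a direct BMP target, was at 1.55, 1.88 and 1.91 in the controls and at 1.56, 1.498 and 1.58 in the knockouts. Control 1 lay among the knockouts, and the difference was -0.23 ± 0.10 (adjusted p = 0.428). Id2 was at -0.11 ± 0.072, Id3 at -0.11 ± 0.14 and Id4 at -0.35 ± 0.17, with groups that overlapped for each. With slide row as a block Id3 turned to 0.19 and Id4 was at -0.077. Smad7 was the 1 gene of this list whose groups did not overlap. Hamp, which encodes hepcidin and is driven by BMP in the liver, was not well above background on any array.

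**Figure D4:**
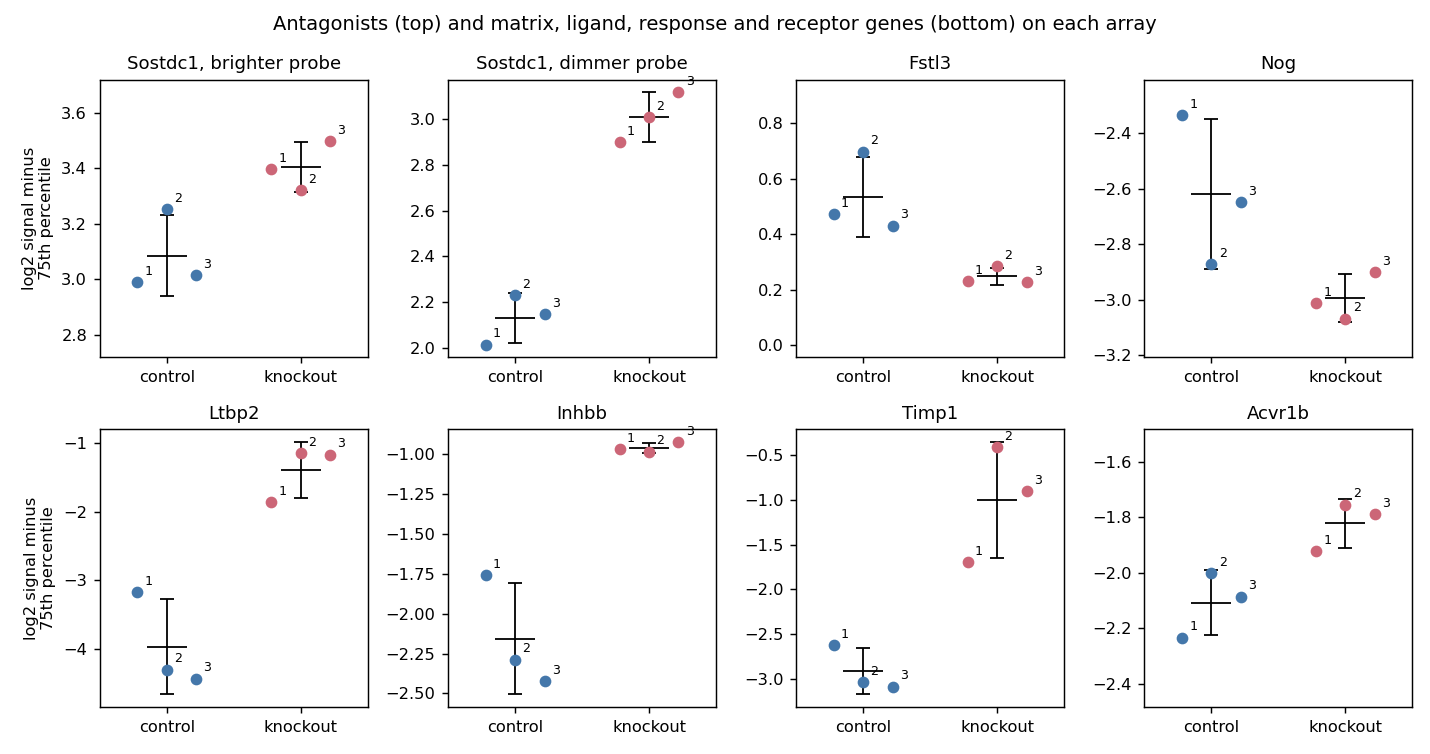
Level of antagonists (top row: Sostdc1 by its brighter and dimmer probe, Fstl3, Nog) and of Ltbp2, Inhbb, Timp1 and Acvr1b (bottom row) on each array (vertical axes: log2 signal minus the array's 75th percentile, each with its own range). Points are animals with their number, bars and whiskers the mean and SD of 3. The groups do not overlap in any of the 8 panels, and knockout 1 is the lowest knockout for the dimmer Sostdc1 probe, Ltbp2, Timp1 and Acvr1b.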

How the data were processed

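Whole-kidney RNA was labelled with Cy3 and put on SurePrint G3 Mouse GE 8x60K arrays, per the labels. Each scanner file gives a linear intensity per spot, per the file headers; the submitters' processing notes name Agilent Feature Extraction 10.7.1.1. This signal is background-subtracted within each array and not scaled between arrays. The authors' deposited table gives a ratio per probe, equal within 1% to that signal over 1 constant per array (checked on at least 13933 probes per array, ratios above 1). The other columns used are flags (well above background, saturated, outlier), as deposited.

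After outlier spots were dropped, log2 signals were averaged over the spots of a probe and set relative to the 75th percentile of their array. A probe was kept if every array of either group had it well above background (32948 probes). Unversioned accessions were looked up in the RefSeq table of GRCm38.p6, which named 28020 of 55681 probes. Probe positions are on mm9 per the file headers, so no coordinates are printed, and that table served only for names, chromosomes and gene order. The brightest kept probe stood for each gene. The groups were compared by limma 3.58.1 in R 4.3.3 over 15305 genes, with a term for the group alone and p-values adjusted by Benjamini-Hochberg; intervals are limma's, at 95% and unadjusted. An exact two-sided permutation test of 3 against 3 cannot go below p = 0.1. Python 3.11.15, pandas 2.3.3 and matplotlib 3.10.9 were used. Summed levels add the linear scaled signals of a list's probes. The fit was tested on simulated data for knockout against control, in 20 runs on 15303 genes with 200 changed. It recovered 64.2% of changes of 1.5-fold, 83.7% at 2-fold and 94.9% at 4-fold, and 5.59% of its calls were false. The simulated noise was normal, with each gene's residual spread, and independent between arrays. No effect of slide row or array was simulated, so these rates do not give the power in the real arrays.

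The 9 genes and all lists were chosen with earlier results of these data known. Named genes are Nampt, the 9 genes, the 4 of smallest p in each pathway list, further pathway genes of known roles and the gene nearest to each of the 9; the dimmer Sostdc1 probe and the other genes given with values were named after their values were seen. Some genes that this rule names are not reported here. Lists were described by counts and medians, with no set test. The 18 alternatives are in the closing section; the one with normexp starts from the median spot and background signals in place of the processed signal, so that its input differs too.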

Additional observations from a re-analysis of the deposited data

How the results depend on the processing

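Of the 9 genes 0 passed in any of the 18 alternatives, and Tgfb2, Tgfbr2 and Smad7 kept their sign in all 18. Of 54 named genes tested, 28 kept their sign; the cause of the turns below was not tested. The small differences of steady genes and the wide one of Grem1 rest on 3 animals a group, and those of dim genes on low signals.

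For genes called, knockout against control, the count of 26 became 11 with quantile normalisation, 77 with no filter on dim probes, 57 with a trended and robust variance, 337 with array weights and 16 with slide row as a block. Leaving out 1 replicate gave 0 to 57 genes: 0 without control 2 or control 3, 1 without knockout 2 or knockout 3, 34 without control 1 and 57 without knockout 1. With the replicate number as a block 0 genes were called by limma (1634 at an unadjusted p under 0.05). For animals of the same number the correlation of deviations from the group means was 0.104, -0.0963 and -0.0252 over 15303 genes. Pairs of different numbers reached 0.122. With 3 animals a group, these values cannot show whether animals of the same number were paired. The count of pathway genes called, 0, became 1 with every probe, 1 with the trended and robust variance and 3 with array weights, and 0 to 3 when 1 replicate was left out. The dimmer Sostdc1 probe was followed through the settings after its value was seen; it was called in 9 of 16, with adjusted p from 0.00464 to 0.183, and lost with the replicate block (0.114).

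Signs turned as follows, as knockout minus control. With quantile normalisation Bmp2 was -0.024 and Smad1 -0.013. With the median of detected probes Smad4 was -6.9e-06 and Kcp -0.0028. With normexp and quantile normalisation Tgfbr1 was -0.021, Smad3 0.021, Grem1 0.023, Bmp2 -0.025, Bmpr1a 0.0047, Smad4 -0.0053 and Kcp -0.011. With the authors' deposited ratios Kcp was -0.00072. With the probes of a gene averaged, Tgfbr1 was -0.073, Smad3 0.020 and Smad5 -0.078. With every probe, by the other probe, Tgfbr1 was -0.18, Smad3 0.056 and Smad5 -0.20. With array weights Tgfb1 was -0.048, Smad3 0.032, Bmp7 0.029, Grem1 0.39, Bmp2 -0.044, Acvrl1 -0.11, Eng -0.044, Kcp -0.034 and Ccn2 -0.029. With slide row as a block Tgfb3 was -0.17, Rgma 0.012, Bmpr1b 0.014, Bmp2 -0.16, Bmp6 0.0020, Gdf15 -0.20, Bmpr2 0.016, Smad2 -0.041, Smad6 0.082, Chrd 0.038, Fst 0.095 and Id3 0.19.

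With 1 replicate left out, the range was -0.061 to 0.11 for Tgfb1, -0.073 to 0.039 for Smad3, -0.087 to 0.021 for Bmp7, -0.59 to 0.91 for Grem1, -0.17 to 0.14 for Bmp2, -0.0011 to 0.16 for Bmp4 and -0.085 to 0.25 for Gdf15. It was -0.063 to 0.061 for Acvrl1, -0.10 to 0.0034 for Bmpr2, -0.063 to 0.089 for Eng, -0.017 to 0.11 for Smad1, -0.0091 to 0.019 for Smad4, -0.13 to 0.0043 for Chrd, -0.053 to 0.045 for Kcp and -0.030 to 0.21 for Ccn2. A further 21 named genes kept their sign but moved by over 1.5 times when 1 replicate was left out, among them Tgfb2 (0.075 to 0.28), Tgfb3 (0.0011 to 0.20), Tgfbr1 (0.0079 to 0.056), Tgfbi (0.063 to 0.47), Nbl1 (0.13 to 0.49), Fst (-0.46 to -0.090) and Id4 (-0.49 to -0.18).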
